A study of Homo sapiens with 3 samples.

Results

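The genes described here encode the subunits of the proteasome. They are the 39 RefSeq protein-coding genes, of 19974 on chromosomes 1 to 22 and X, whose symbol is PSMA, PSMB, PSMC or PSMD followed by a number. No measured value enters this symbol rule, but the members were chosen with earlier results of these data known. The core particle accounts for 19 of them (8 PSMA and 11 PSMB genes) and the regulatory cap for 20 (6 PSMC and 14 PSMD genes). MYC binding was measured by ChIP-Rx, in which chromatin of another species is added as a reference before the immunoprecipitation, in U2OS, an established human osteosarcoma cell line, described as parental. The labels name no further treatment or genotype, and mouse NIH3T3 fibroblasts were mixed in at 10% after both had been fixed with 1% formaldehyde. The series holds 2 libraries made with an anti-MYC antibody, described as biological replicates, and 1 input library, which are represented by 1 deposited list of 9818 peaks.

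The proteasome is the main protease of the cytosol and nucleus and degrades proteins marked with ubiquitin. Its core is a barrel of stacked rings, with alpha subunits (PSMA) forming the gated outer rings and beta subunits (PSMB) forming the inner rings that hold the proteolytic sites. The cap consists of a base, with a ring of ATPases (PSMC) that unfold the substrate and PSMD subunits that act as scaffolds or ubiquitin receptors, and a lid of further PSMD subunits, which include the deubiquitinase. Other PSMD genes encode chaperones that help to assemble the base. MYC binds DNA as a dimer with MAX, and its preferred element is the E-box, CACGTG.

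All fold values are the authors' fold enrichment over control at the peak summit, on a linear scale, and q is the authors' adjusted p-value, given as −log10 q. The list does not separate the libraries, so no value has a replicate error, the depth behind it is unknown, and none of the differences below was tested. It holds no expression values, so the U2OS label was not checked against marker genes. A gene was assigned every peak whose summit lay inside it or within 5000 bp of it, and is described by the peak with the highest −log10 q. Starts of transcription were those of the RefSeq promoter table (GRCh38.p14), which held 34 of the 39 genes. For PSMA7, PSMB1, PSMB6, PSMB7 and PSMD4 the nearer gene end was used, as for every gene without a listed start. Distances count from the first transcribed base. Whether summits were exonic or intronic was not analysed here.

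Promoters of 6 genes are printed because the results turn on them. PSMD9, PSMC2, PSMA1 and PSMB2 had the highest −log10 q of their symbol groups, that of PSMC2 through a peak at a neighbour. PSMD14, which had the highest fold of all members, and PSMB3, which had an E-box and no peak, were chosen after their values were seen. Each sequence holds the 250 bases before a listed start, from RefSeq on GRCh38.p14, 5′ to 3′ on the gene's own strand. The positions are chr12:121888540-121888789 (plus) for PSMD9, chr2:161308175-161308424 (plus) for PSMD14, chr7:103347393-103347642 (plus) for PSMC2, chr11:14520387-14520636 (minus) for PSMA1, chr1:35641527-35641776 (minus) for PSMB2 and chr17:38752491-38752740 (plus) for PSMB3. Capitals mark complete matches, on either strand, to the E-box, the CCAAT box, the ETS core CCGGAAG, the antioxidant response element core TGACNNNGC or GCATGCGC, and the last has none in these 6.
PSMD9: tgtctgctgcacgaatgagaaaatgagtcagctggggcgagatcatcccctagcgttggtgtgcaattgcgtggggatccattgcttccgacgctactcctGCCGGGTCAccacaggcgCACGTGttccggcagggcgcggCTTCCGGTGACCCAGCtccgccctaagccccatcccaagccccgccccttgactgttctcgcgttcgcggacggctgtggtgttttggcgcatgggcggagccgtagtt
PSMD14: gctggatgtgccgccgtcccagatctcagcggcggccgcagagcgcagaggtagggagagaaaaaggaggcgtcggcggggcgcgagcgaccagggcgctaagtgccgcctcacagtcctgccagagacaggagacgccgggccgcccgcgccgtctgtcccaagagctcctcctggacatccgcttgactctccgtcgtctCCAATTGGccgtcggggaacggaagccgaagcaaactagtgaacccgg
PSMC2: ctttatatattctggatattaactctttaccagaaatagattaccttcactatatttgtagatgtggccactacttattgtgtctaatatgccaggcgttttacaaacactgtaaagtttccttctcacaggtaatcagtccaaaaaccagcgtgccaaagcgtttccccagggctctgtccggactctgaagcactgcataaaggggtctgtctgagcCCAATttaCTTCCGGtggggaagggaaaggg
PSMA1: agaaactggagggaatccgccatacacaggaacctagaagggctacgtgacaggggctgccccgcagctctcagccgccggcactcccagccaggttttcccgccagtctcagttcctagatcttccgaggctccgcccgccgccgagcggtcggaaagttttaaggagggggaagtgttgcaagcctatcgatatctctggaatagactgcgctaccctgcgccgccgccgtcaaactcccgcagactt
PSMB2: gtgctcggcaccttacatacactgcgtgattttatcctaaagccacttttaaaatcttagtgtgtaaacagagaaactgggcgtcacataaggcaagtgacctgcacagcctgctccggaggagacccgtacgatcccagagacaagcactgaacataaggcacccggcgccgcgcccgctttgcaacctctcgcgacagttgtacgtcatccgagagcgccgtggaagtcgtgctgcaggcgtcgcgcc
PSMB3: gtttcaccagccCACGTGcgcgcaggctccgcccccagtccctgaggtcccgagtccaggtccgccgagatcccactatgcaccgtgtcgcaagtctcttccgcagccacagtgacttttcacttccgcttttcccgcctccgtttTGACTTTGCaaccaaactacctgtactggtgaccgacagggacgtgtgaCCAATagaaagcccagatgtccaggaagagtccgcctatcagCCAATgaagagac

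MYC summits lay at most proteasome subunit genes. Of the 39 genes 33 had a summit inside or within 5000 bp, beside 47.7% of all protein-coding genes by the same rule. The core accounted for 14 of 19 and the cap for 19 of 20. The 6 genes without a summit were PSMA8, PSMB3, PSMB8, PSMB9, PSMB11 and PSMD10. Of these, 4 encode the testis, thymus or interferon-induced versions of core subunits. Among the 31 subunits of the constitutive proteasome 30 had a summit, and PSMB3 was the exception. A summit lay within 1000 bp of a start in 31 of the 39 genes (12 core, 19 cap), beside 39.0% of all protein-coding genes. The 39 genes had a median annotated length of 15314 bp and all protein-coding genes one of 24171 bp.

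The heights of these peaks covered much of the range seen at other genes. The strongest peak of each of the 33 genes had a median fold of 9.72 (quartiles 6.95 and 12.7) and that of all 9520 protein-coding genes with a peak one of 8.56 (quartiles 6.07 and 13.0). The 14 core genes had a median of 10.7 and spanned 3.34 to 17.7. The 19 cap genes had a median of 8.92 and spanned 2.69 to 48.4, so the lowest and the highest member both belonged to the cap. For the peaks within 1000 bp of a start, the median fold was 12.0 in the core and 7.57 in the cap. That of all protein-coding genes was 8.26. Of the 33 genes 20 lay above the median of all genes with a peak, 8 above the upper quartile and 7 below the lower quartile. Among the stronger 50% of peaks, those with −log10 q of at least 47.8, 23 members had a summit (12 core, 11 cap), beside 27.7% of all protein-coding genes.

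**Figure D1:**
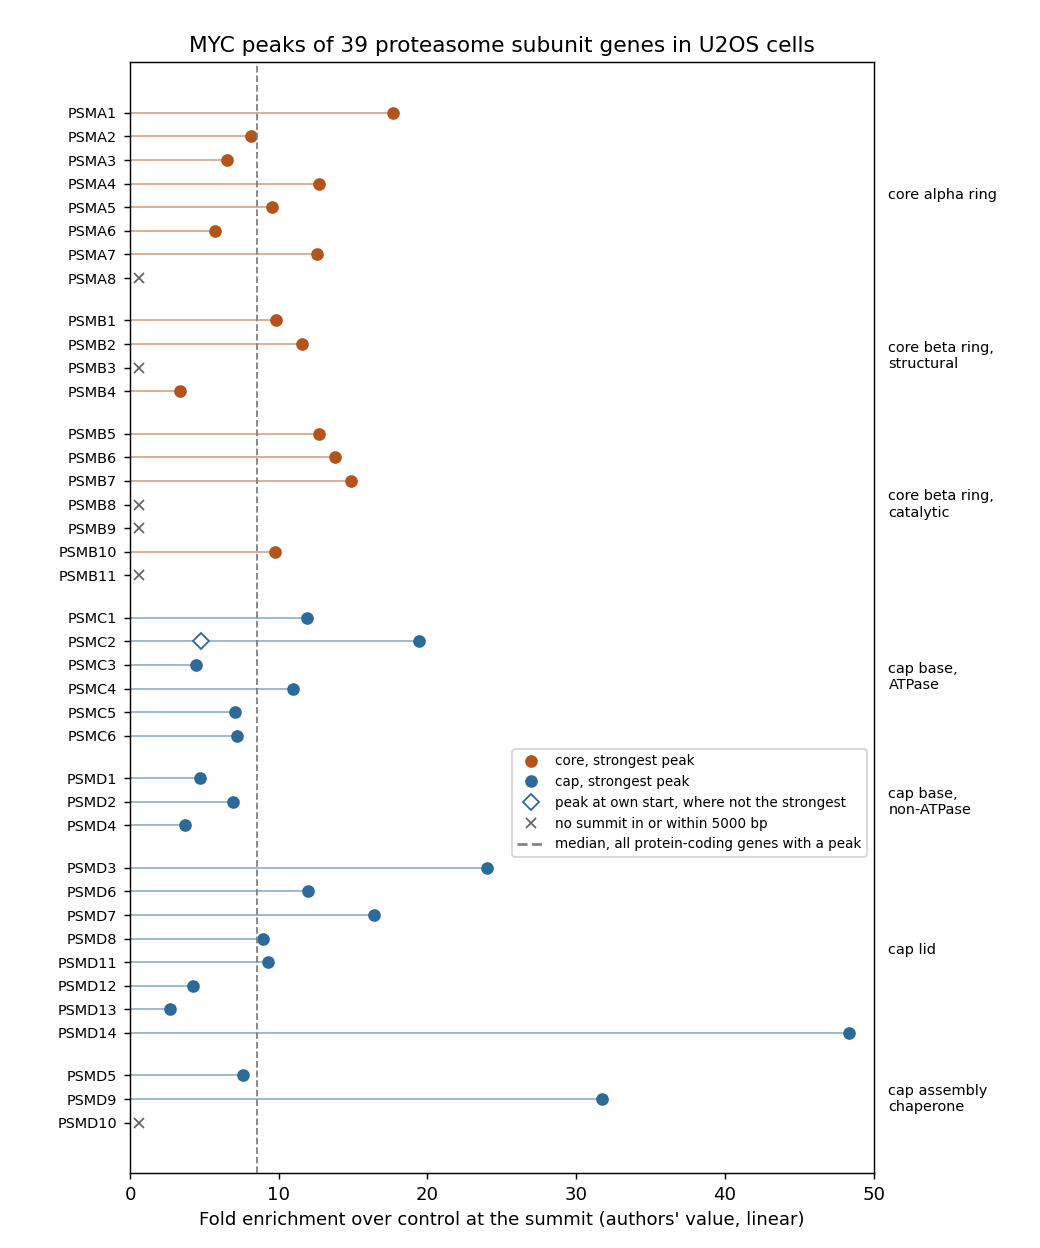
Fold enrichment of the strongest MYC peak (authors' value, linear axis) for each of the 39 proteasome subunit genes, grouped by role. Filled circles are the strongest peak, the open diamond is the peak at the start of PSMC2, crosses mark the 6 genes without a peak, and the dashed line is the median of all protein-coding genes with a peak (8.56). PSMD14 (48.4), PSMD9 (31.8) and PSMD3 (24.0) lie farthest to the right, and the 3 non-ATPase base subunits shown lie left of the line.

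**Figure D2:**
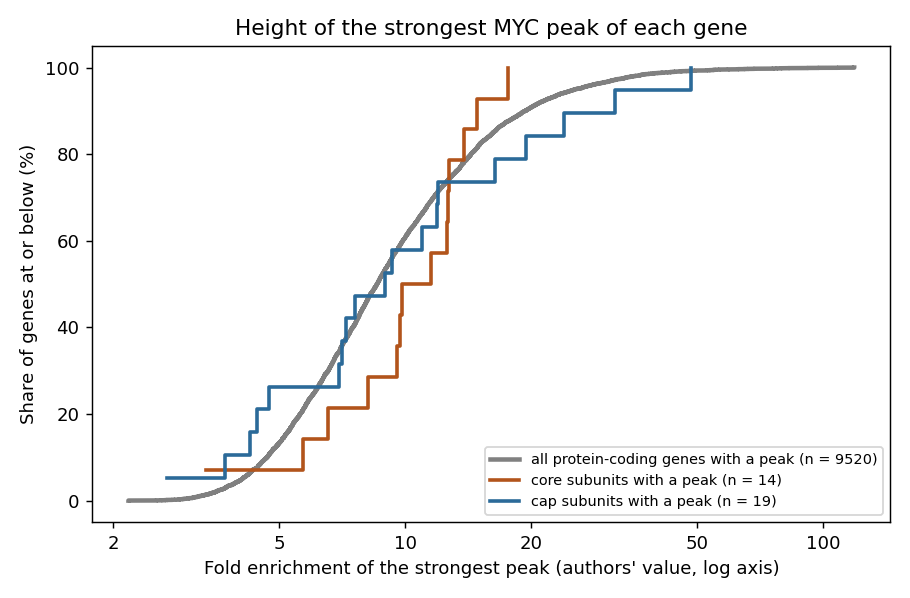
Cumulative share of genes (vertical axis, percent) against the fold of the strongest peak (horizontal log axis) for all 9520 protein-coding genes with a peak, 14 core genes and 19 cap genes. The core curve ends at 17.7, while the cap curve starts lower, at 2.69, and reaches 48.4.

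Summits lay on both sides of the starts. In the 27 genes with a listed start and a summit within 1000 bp of it, summits lay between 267 bp upstream (PSMD1) and 229 bp downstream (PSMD14), at a median distance of 77 bp, beside 126 bp in all 6560 protein-coding genes of that kind. Of the 27 summits 16 lay within 100 bp, beside 43.6% in those genes, and 18 lay upstream, beside 58.5%. PSMA1 and PSMA6 have annotated spans that reach far upstream of the listed starts, and neither had a summit within 1000 bp of a gene end. The PSMA1 summit nevertheless lay 50 bp downstream of a listed start and the PSMA6 summit 8 bp upstream of one. With gene ends in place of starts 29 members, not 31, had a summit within 1000 bp, beside 37.6% of all protein-coding genes.

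**Figure D3:**
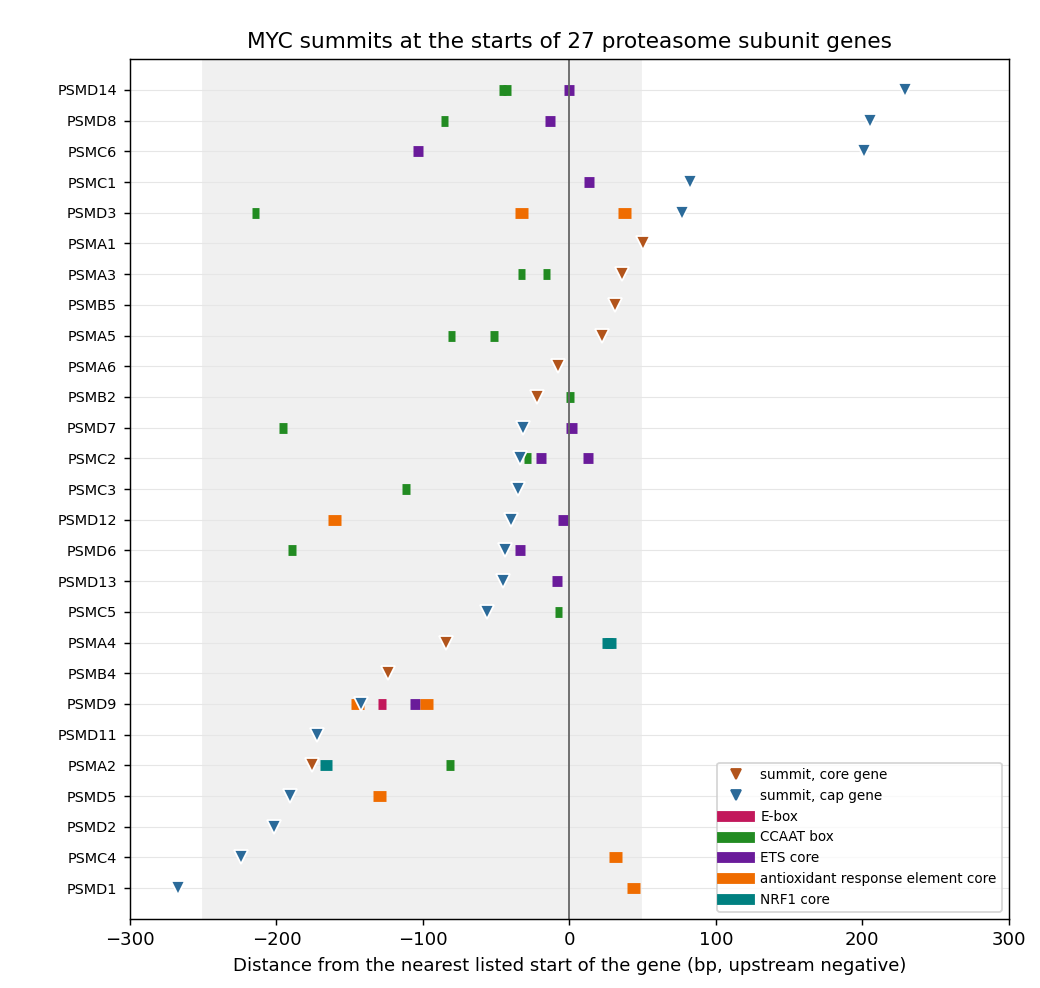
Position of the MYC summit (triangles) and of motif matches (coloured bars) relative to the nearest listed start, in bp with upstream negative, for the 27 genes with a listed start and a summit within 1000 bp; the shaded band is the promoter stretch searched for motifs. Summits range from -267 bp in PSMD1 to 229 bp in PSMD14, and the E-box of PSMD9 lies beside its summit.

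The alpha ring was occupied throughout, apart from its testis form. PSMA1 (gene 5682, chr11:14504876-14643662) had the highest peak of the core, at chr11:14519718-14521012, with a fold of 17.7 (−log10 q 225), rank 634 of the 9818 peaks. PSMA4 (chr15:78540405-78552417) followed with a peak at chr15:78540026-78540900, a fold of 12.7 (−log10 q 164), its summit 84 bp upstream of the first of 3 listed starts. The peak of PSMA5 (chr1:109425861-109427064) had a fold of 9.55 (−log10 q 113), with the summit 22 bp downstream of the start. All 3 lay above the median of genes with a peak, while PSMA6 had the lowest fold of the ring, 5.68.

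PSMA7 had a fold of 12.6 with its summit 3 bp from a gene end, and that summit lay 372 bp from the start of SS18L1, a chromatin remodelling subunit gene. PSMA3 had a fold of 6.52, 36 bp downstream of its start. PSMA2 had 2 peaks, and both lay nearer to a neighbour. The peak at its start (chr7:42931852-42932841, fold 8.15, −log10 q 86.5) had its summit 176 bp upstream of PSMA2 and 26 bp from the start of MRPL32, a mitochondrial ribosomal protein gene. The other (chr7:42911577-42912360, fold 7.86, −log10 q 56.9) lay 4773 bp outside the gene, near the edge of the window, and 18 bp from the start of C7orf25. PSMA8, the alpha subunit of the testis proteasome (chr18:26133869-26193355), had no summit closer than 33287 bp.

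The 3 catalytic subunits of the constitutive core had folds between 12.7 and 14.9. PSMB5, which carries the chymotrypsin-like site, had a fold of 12.7 (−log10 q 92.9; chr14:23034408-23035371, summit 31 bp downstream of the nearer of its 2 listed starts). PSMB6, which carries the caspase-like site, had a fold of 13.8 (−log10 q 54.6; chr17:4795895-4796341, 36 bp from a gene end). PSMB7, which carries the trypsin-like site, had a fold of 14.9 (−log10 q 73.3; chr9:124415097-124415735, 16 bp from a gene end). All 3 stood above the median of genes with a peak, at the percentiles 74.2, 78.0 and 81.5 of fold among them. The peak of PSMB6 was the narrowest among the strongest peaks of the members, at 447 bp.

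Of their interferon-induced counterparts, which replace them in the immunoproteasome, 1 of 3 had a peak. PSMB8 (chr6:32840717-32844679) and PSMB9 (chr6:32854192-32859851), neighbours in the MHC region, had no peak. The same summit was the nearest to both, 726673 and 711501 bp away, so both lie in a single long stretch without a summit. Whether reads could be placed well in that stretch was not examined. PSMB10 (chr16:67934506-67936850) had 1 peak at chr16:67935351-67936041, with a fold of 9.72 (−log10 q 80.3). Its summit lay inside the gene, 1165 bp downstream of the only listed start and thus just outside the 1000 bp window. PSMB11, the thymus subunit (chr14:23042212-23044060), lies next to PSMB5. Its nearest summit, 7343 bp away, was the summit counted for PSMB5.

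The structural beta subunits ranged from no peak to a fold of 11.5. PSMB2 reached that fold with a −log10 q of 117 at chr1:35641179-35641998, with the summit 22 bp upstream of the start. The peak assigned to PSMB1 (chr6:170552935-170554724, fold 9.84, −log10 q 90.1) was the widest of the member peaks at 1790 bp. Its summit lay 1042 bp outside the gene and 20 bp from the start of TBP, the TATA-binding protein gene, although the peak reached over the end of PSMB1 at 170553307. PSMB4 had the lowest fold of the core, 3.34 at a −log10 q of 13.1, with the summit 124 bp upstream. PSMB3 (chr17:38752741-38764225) had no peak, with the nearest summit 89582 bp from the gene, while the other 3 structural subunits each had one.

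The ATPases of the base all had a summit within 1000 bp of a start, and the peaks at these starts had a median fold of 7.13 (4.43 to 11.9), beside 8.26 for such peaks of all protein-coding genes. PSMC1 had a fold of 11.9 (−log10 q 35.1), and PSMC4 a fold of 11.0 (−log10 q 122; chr19:39970464-39971518, 224 bp upstream of its start and 30 bp from that of the noncoding gene LOC124904720). PSMC5 had a fold of 7.05 (−log10 q 84.1) at chr17:63826876-63827789, 56 bp upstream of its start and 288 bp from that of FTSJ3, a ribosomal RNA processing gene. PSMC6 had a peak 201 bp downstream of its start (chr14:52706695-52707586, fold 7.21, −log10 q 73.5). Its second peak (chr14:52729860-52730706, fold 4.05, −log10 q 23.5) lay 1633 bp outside the gene and 57 bp from the start of STYX.

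PSMC2 had 2 peaks, and the stronger lay at a neighbour. This peak (chr7:103344138-103345055, fold 19.4, −log10 q 294) lay 2677 bp outside the gene and 80 bp from the start of DNAJC2, a ribosome-associated chaperone gene. At its own start, 34 bp upstream, stood a smaller peak with a fold of 4.80 (−log10 q 28.8; chr7:103347474-103348223), which lay also 67 bp from an end of PMPCB, a mitochondrial peptidase gene. This was the only member whose strongest peak was not the one nearest its start. PSMC3 had a fold of 4.43 at its start (chr11:47426018-47426678, −log10 q 36.4, 35 bp upstream). Its other peak (chr11:47416108-47416478) had the higher fold, 6.94, at a lower −log10 q, 32.6, and lay 2533 bp outside the gene and 258 bp from an end of SLC39A13, a zinc transporter gene.

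The 3 PSMD subunits of the base had peaks with folds of 3.70 to 6.95. PSMD1, a scaffold subunit, had a peak 267 bp upstream of its start (chr2:231056486-231057051, fold 4.72, −log10 q 29.2). PSMD2, the other scaffold subunit, had a fold of 6.95, with the summit 202 bp upstream. PSMD4, a ubiquitin receptor, had a fold of 3.70, with the summit 24 bp from a gene end. All 3 lay below the median of genes with a peak, and none had a summit among the stronger 50% of peaks. PSMD1 also had a peak (chr2:231052725-231053146, fold 3.54, −log10 q 15.3) that lay 3803 bp upstream of its start and 3345 bp from an end of C2orf72.

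The lid held the highest fold of all members and also the lowest. PSMD14, the deubiquitinase of the lid, had a fold of 48.4 (−log10 q 388) at chr2:161308058-161309032, rank 238 of all peaks by −log10 q and percentile 99.3 of genes with a peak by fold. Its summit lay 229 bp downstream of the start of PSMD14 (chr2:161308425-161411717), and the nearest other listed start was 63915 bp away. PSMD3 (chr17:39980807-39997959) had a fold of 24.0 (−log10 q 218) at chr17:39980528-39981319, 77 bp downstream of its start. PSMD7, the partner of PSMD14 in the lid, had a fold of 16.4, PSMD6 one of 12.0, PSMD11 one of 9.29 and PSMD8 one of 8.92. At the other end stood PSMD12 (fold 4.26) and PSMD13 (fold 2.69).

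The peak of PSMD13 had a −log10 q of 6.0, rank 9807 of 9818. Its summit fell on the start of SIRT3, a mitochondrial deacetylase gene, 45 bp upstream of that of PSMD13. Among genes with a peak, lid genes spanned the percentiles of fold from 0.15 to 99.3. PSMD11, whose start peak (chr17:32444141-32445000, −log10 q 56.3) had its summit 172 bp upstream, had a second peak. This one (chr17:32486091-32486973, fold 9.88, −log10 q 54.8) lay 3105 bp outside the gene and 569 bp from the start of CDK5R1, a kinase activator gene.

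Of the 3 chaperones that assemble the base, PSMD9 had the highest −log10 q of all members. Its peak (chr12:121888190-121889251, fold 31.8, −log10 q 490) ranked 142 of the 9818 peaks. The summit lay 142 bp upstream of PSMD9 (chr12:121888790-121918297) and 37 bp from the start of HPD, a tyrosine catabolism gene that is transcribed the other way. PSMD5 had a fold of 7.57 (−log10 q 45.9), its summit 191 bp upstream of its start and 38 bp from an end of the pseudogene CUTALP. PSMD10, also known as gankyrin (chrX:108084207-108091542), had no peak, the nearest summit lying 455158 bp away.

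**Figure D4:**
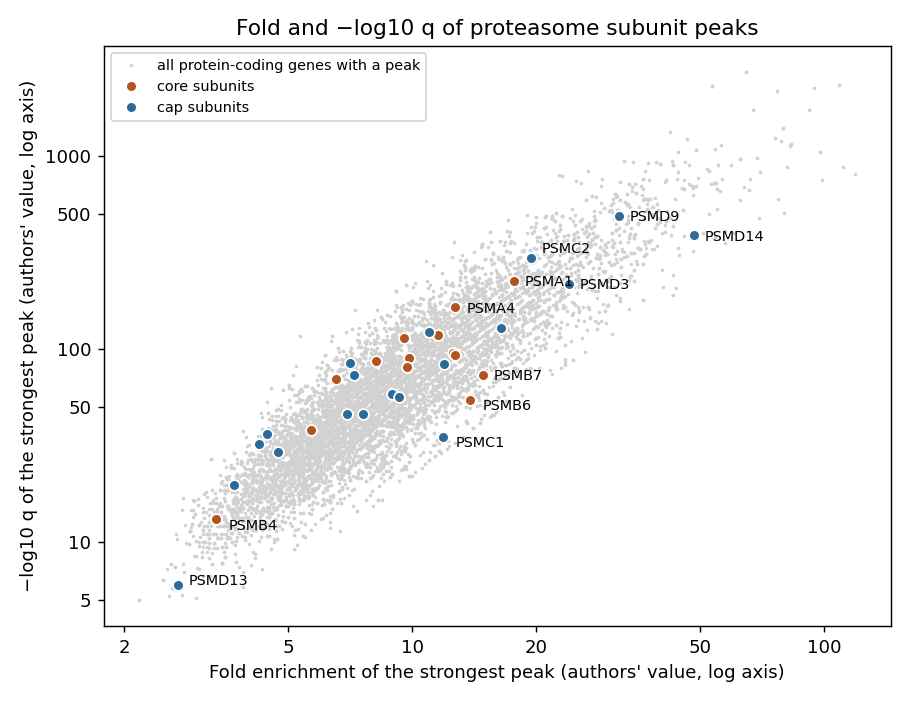
Fold (horizontal log axis) against −log10 q (vertical log axis) of the strongest peak for all protein-coding genes with a peak (grey), core subunits (orange) and cap subunits (blue). PSMD9 has the highest −log10 q of the members (490) and PSMD14 the highest fold (48.4), while PSMC1 (35.1) and PSMB6 (54.6) have a low −log10 q for their fold.

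Some summits lay nearer to a neighbour. Of the 39 peaks assigned to the 33 genes, all different, 10 had a summit nearer to the listed start of another gene than to the start of the subunit gene (for PSMB1, its end). The same held for 32.0% of the 10907 pairs of a protein-coding gene and an assigned peak, on chromosomes with listed starts. There a peak shared by several genes counts once for each of them. The 10 member peaks were both peaks of PSMA2, those of PSMB1, PSMC4, PSMD9 and PSMD13, and the second peaks of PSMC3, PSMC6 and PSMD11, as well as the DNAJC2 peak counted for PSMC2. A peak in such an interval cannot be given to 1 of the genes from these data. Without these 10 summits 28 of the 39 genes had a peak, 12 in the core and 16 in the cap, beside 35.8% of the 19259 protein-coding genes on chromosomes with listed starts under the same exclusion. The 5 genes left without a summit were PSMA2, PSMB1, PSMC4, PSMD9 and PSMD13, all constitutive subunits except the chaperone PSMD9. Only listed starts of other genes counted here. PSMD5 was thus kept, although its summit lay 38 bp from an end of CUTALP and 191 bp from its own start.

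Few promoters held the letters of the E-box, among the members as among all genes. In the 300 bases around a start (250 before, 50 from the start on) CACGTG occurred in 2 of 34 members, PSMD9 and PSMB3, and in 10.9% of the 15812 protein-coding genes with a listed promoter. Over all those genes, a summit lay within 1000 bp of a start for 57.6% of those with the letters and 39.5% of those without. In PSMD9 the E-box lay from -131 to -126, 11 bp from the summit, as printed above. In PSMB3 it lay from -238 to -233, with the nearest summit 101299 bp away. PSMD14, with the highest fold, had no CACGTG in this window, and neither had PSMA1, PSMB2 or PSMC2. The window did not reach the PSMD14 summit, 229 bp downstream of the start, or the strongest PSMC2 summit, 2796 bp from the start. Of the 27 summits near listed starts 20 lay inside the window, and sequence outside it was not searched. The variant CACGCG, added after the data were seen, occurred in 4 members (PSMA5, PSMA8, PSMC3 and PSMC4) and in 18.1% of all genes. With CACGCG, a summit lay within 1000 bp of a start for 58.6% of all genes with a listed promoter, and without it for 37.7%. Such a gap was thus not particular to CACGTG.

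Of the other elements, 3 were found in 10 or more members. The ETS core CCGGAAG, recognised by factors such as GABPA, occurred in 12 of 34 members, beside 16.5% of all genes. It was found in 10 of 19 cap genes and 2 of 15 core genes, PSMA6 and the testis gene PSMA8. The core genes PSMA7, PSMB1, PSMB6 and PSMB7 and the cap gene PSMD4 had no listed promoter to search. Over all genes with a listed promoter, a summit lay within 1000 bp of a start for 69.5% of those with CCGGAAG and 36.0% of those without. In the 11 members with CCGGAAG and a peak, the nearest match lay 7 bp (PSMD6) to 302 bp (PSMC6) from a summit, with a median of 33 bp. The CCAAT box, the element of NF-Y, occurred in 18 members, 9 in the core and 9 in the cap, beside 42.1% of all genes. In PSMD14 it stood on both strands within 8 letters that overlap, CCAATTGG. TGACNNNGC, the core of the antioxidant response element used by NFE2L1 and NFE2L2, occurred in 10 members (7 cap, 3 core) beside 17.9% of all genes. In the 8 of these with a peak the nearest match lay 0 bp (PSMD9, where the summit fell within the match from -149 to -141) to 339 bp (PSMA4) from a summit, with a median of 184 bp. GCATGCGC, the core of the nuclear respiratory factor element, occurred in 2 members, PSMA2 and PSMA4, beside 4.89%. It lay 6 bp from the summit in PSMA2 and 106 bp in PSMA4. The share of all genes with a summit within 1000 bp of a start was 63.0% with GCATGCGC and 40.4% without. For TGACNNNGC these shares were 45.9% and 40.5%, and for CCAAT 41.8% and 41.2%. Both strands were searched, and a match is a stretch of letters, not a measured site.

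Proteasome genes outside the symbol rule were also mostly occupied. Of 32 such genes, listed by role, 30 had a summit inside or within 5000 bp, with a median fold of 10.1 (4.71 to 52.7), beside the 47.7% given above for all protein-coding genes. Summits nearer to the listed start of another gene were kept in this count and median. The summit of PAAF1, for example, lay 133 bp from its own start and 20 bp from that of COA4. All 5 activator and inhibitor genes had one. PSME3, which encodes the nuclear activator PA28-gamma, had a fold of 52.7 (−log10 q 838; chr17:42832787-42833641, 70 bp upstream of its start), above every member in both values. PSME4 followed with a fold of 11.8, its summit 211 bp from its own start and 91 bp from that of ACYP2. PSME1 and PSME2, the interferon-induced activator pair, were assigned the same peak (fold 7.81), which lay 19 bp from the start of EMC9. PSME1 also had a peak 49 bp downstream of its own start, with a fold of 3.30 (−log10 q 9.89).

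All 6 assembly factors had a summit, led by PSMG2 (fold 9.66, −log10 q 214) and PSMG3 (fold 11.7, −log10 q 143). These summits lay 237 bp from the start of CEP76 and 4 bp from that of PSMG3-AS1. Among cap subunits and partners with other names, USP14, a deubiquitinase, had a fold of 30.01 and ECPAS, an adaptor that holds cap and core together, one of 9.13. ADRM1, a ubiquitin receptor of the cap, and UBE3C, a ubiquitin ligase bound to it, had no peak, with the nearest summits 61572 and 30876 bp away. All 8 ubiquitin shuttle and unfoldase genes had one. UBQLN4 had a fold of 30.7, but its summit lay 847 bp from a gene end and 137 bp from the start of LAMTOR2. VCP, the unfoldase, had a fold of 20.3. The 7 genes that control proteasome transcription all had a summit, with NFE2L1 (fold 20.01, −log10 q 308) and NFE2L2 (fold 14.0, −log10 q 180) highest. In NFE2L1, the factor that induces proteasome genes when activity falls short, the summit lay 489 bp upstream of the start and 183 bp from that of the divergent transcript NFE2L1-DT.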

How the data were processed

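The data were 1 deposited peak list from MYC ChIP-Rx in U2OS cells (2 IP libraries, 1 input). Per the submitters' processing notes, cutadapt, Bowtie2, SAMtools, Picard and MACS2 were named with the builds hg19, mm10 and hg38 but no version or setting. The coordinates are hg38 according to the list's own name. How libraries were pooled and mouse reads entered the scaling: not given in the sources used here. The deposited columns include the authors' fold enrichment at the summit (a linear ratio), −log10 q and a score. Only fold and −log10 q were used. The depth is unknown.

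Summits were assigned to RefSeq genes (GRCh38.p14, 59098 genes of all classes on chromosomes 1 to 22 and X) with Python 3.11.15, pandas 2.3.3 and numpy 2.4.6, after the assignment had been tested on simulated coordinates. The promoter table matched 34 of 39 members and 15812 protein-coding genes. No test was made, since there are no per-library values and genes are not replicates. Counts are given beside the same count over all protein-coding genes. The members and lists were chosen with earlier results of these data known. Every member is named. Full values go to the 3 highest by −log10 q of each symbol group, the catalytic, tissue-specific and multi-peak members and those near the window's edge. Of the other proteasome genes, the 2 highest by −log10 q of each role, and those without a peak, are named, and the pair PSME1 and PSME2 was added after its values were seen. Alternatives were other windows, stronger peaks, any base of the peak, gene ends, and other choices of a gene's peak.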

Additional observations from a re-analysis of the deposited data

How the results depend on the processing

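The number of members with a summit was 33 and ranged over the alternatives run from 23 (stronger 50% of peaks, beside 27.7% of all protein-coding genes) to 34 (window of 10000 bp, which added PSMB11, beside 50.9%). Core counts ranged from 12 to 15. Cap counts ranged from 16 to 19, except for 11 in the stronger 50% of peaks, where PSMC1, PSMC3, PSMD1, PSMD2, PSMD4, PSMD5, PSMD12 and PSMD13 were lost by construction. In the same peaks 20 members, in place of 31, had a summit within 1000 bp of a start, beside 22.1% of all protein-coding genes. Windows of 500 and 2000 bp around a start gave 31 and 33, beside 35.6% and 40.6%. The core median fold of 10.7 became 11.5 with a window of 1000 bp or with constitutive subunits alone, and 12.0 without summits nearer to the listed start of another gene, an alternative added after the data were seen. The cap median of 8.92 became 7.57 with the peak nearest the start or a window of 1000 bp, 9.11 with −log10 q of at least 10, and 7.39 without summits nearer to another listed start. Each of these settings changes which peaks or genes enter the median. The core median stayed above the cap median in each setting for which medians were taken, and all reuse the same peak list. The stronger 50% of peaks was not one of those settings. With the main setting the quartiles of fold were 8.50 and 12.7 in the core and 5.83 and 14.2 in the cap, so the upper one was higher in the cap. No paired analysis was possible because the list holds no per-library values, and for the same reason no library could be left out.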

Other observations

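Fold and −log10 q ordered some members differently. PSMC1 stood at percentile 70.9 of fold among genes with a peak, while its −log10 q ranked 6249 of the 9818 peaks. PSMB6 stood at percentile 78.0 with rank 4333. PSMA3, at percentile 29.8 of fold, ranked 3405. The peaks of PSMC1 and PSMB6 were 591 and 447 bp wide and that of PSMA3 1225 bp. The median member peak was 875 bp wide and that of all protein-coding genes with a peak 821 bp.

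Choosing between listed starts and gene ends also moved the count over all genes. A summit lay within 1000 bp of a start in 7787 protein-coding genes and within 1000 bp of a gene end in 7510.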
